A study of Mus musculus with 9 samples.

Results

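The 9 genes described here encode chemokine receptors: Ccr2, Ccr4, Ccr7, Ccr8, Ccr9, Cxcr3, Cxcr4, Cxcr6 and Cx3cr1. They were taken by symbol from the 48709 rows of a table of transcript levels, in which each had 1 row. The libraries came from mouse CD8+ T cells, the cytotoxic arm of the T cell lineage, and formed 3 groups of 3. Control cells were kept without OVA peptide, a second group received OVA peptide (a fragment of chicken ovalbumin used as a model antigen), and the third received OVA peptide plus citraconate, an unsaturated dicarboxylate that is an isomer of itaconate. Strain, age, dose and time were not given in the sources used here, and no group had citraconate without peptide. In 8 libraries the protocol text uses the undefined name "PAS-T cells"; for OVA plus citraconate replicate 1 it has OVA-stimulated T cells instead.

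Chemokine receptors span the membrane in a bundle of helices and couple mainly to inhibitory G proteins. A T cell that carries a given receptor migrates up a gradient of its chemokine, so the set of receptors on a cell helps decide which tissue it can enter or stay in. CCR7 reads CCL19 and CCL21 and brings T cells into lymph nodes, and CXCR4 reads CXCL12, which is abundant in bone marrow. CXCR3 reads the interferon-induced chemokines CXCL9, CXCL10 and CXCL11, CXCR6 reads CXCL16, and CCR2 reads CCL2; these receptors are known from effector and tissue T cells. CCR4 reads CCL17 and CCL22, CCR8 reads CCL1, CCR9 reads CCL25 of the gut, and CX3CR1 reads CX3CL1 and marks long-lived effector cells.

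Levels are in TPM, a length-corrected unit that sums to 1000000 in every library, so levels can be compared between genes. A level is given per library in the order of replicates 1, 2 and 3, and group values are mean ± SD (n = 3). Reads assigned to genes, worked back from the table, numbered 14754470 to 17384330 per library. Replicate 2 of OVA and replicate 2 of OVA plus citraconate differed most from the other libraries of their groups: pairs of libraries that held one of them had chi-square values of 11.4 to 23.8 per degree of freedom, against 3.73 to 6.42 for the other pairs within a group. Separate cultures or animals are not named for the replicates, and the p-values rest on the spread between these libraries alone, which may be technical.

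In control cells Cxcr6, Ccr2, Cxcr4, Cxcr3 and Ccr7 had the highest levels, Ccr4 was lower, and Ccr8, Cx3cr1 and Ccr9 had few reads. With OVA, Cxcr4 fell 61.0-fold, Cxcr3 39.0-fold and Ccr4 8.77-fold in mean TPM, Cxcr6 and Ccr2 fell by smaller factors, and Ccr7 was not called. When citraconate was added to OVA, Ccr7 rose 4.01-fold over OVA alone, Cxcr6 rose to 100.9% of its control mean, Cxcr4, Cxcr3 and Ccr4 rose but stayed below control, and Ccr2 fell a further 3.20-fold. The plot of levels by library shows these patterns for all 9 genes.

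**Figure D1:**
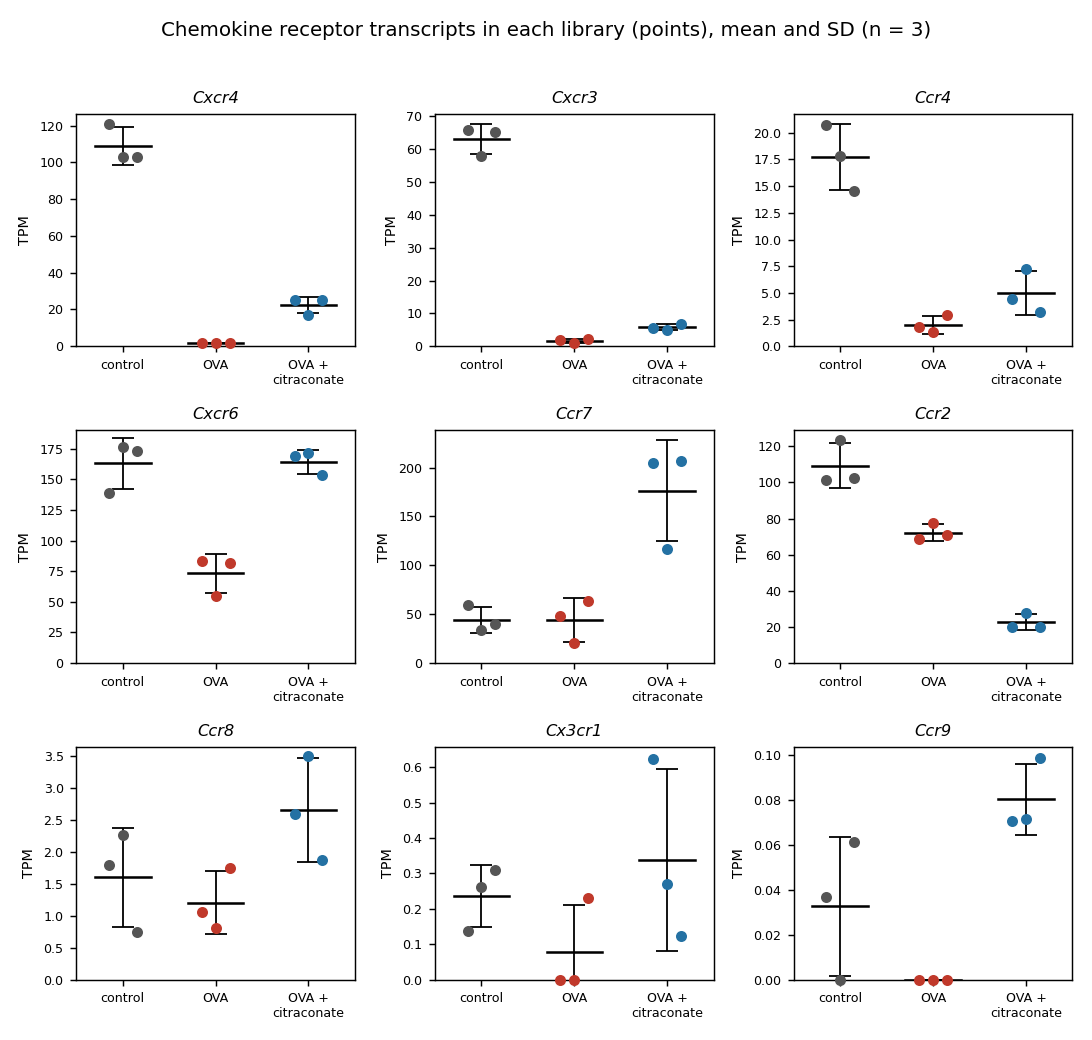
TPM of each receptor gene (vertical axes, linear, each with its own scale) in the 3 libraries of each group; points are libraries, the long bar is the mean and the whiskers are the SD (n = 3). Cxcr4, Cxcr3 and Ccr4 are highest in control, Ccr7 is highest with OVA plus citraconate, and Ccr2 is lowest there; the bottom row holds genes with few reads.

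The tests are from limma, fitted to log2(TPM + 1) of all 9 libraries, two-sided, with Benjamini-Hochberg adjustment over the 11971 genes whose mean reached 1 TPM in some group. Of the 9 receptors 7 met this minimum, and Ccr9 and Cx3cr1 did not. Calls were made where the adjusted p was under 0.05, and differences on this scale understate the change of low genes. With OVA against control 71.9% of all tested genes were called, and 5 of the 7 receptors were called lower (Cxcr4, Cxcr3, Ccr4, Cxcr6 and Ccr2), where 39.8% of all genes were, and 0 were called higher, where 32.1% of all genes were; at an unadjusted p under 0.05 in limma, and with voom weights on recovered reads, the count higher was also 0. The median log2 difference of the 7 was -1.16, beside -0.08 for all tested genes. With OVA plus citraconate against OVA, 6 of the 7 were called higher and 1, Ccr2, lower, beside 37.8% and 21.2% of all genes (59.0% called in all). That split over all genes was 4522 higher and 2543 lower, and with median of ratios scaling 3469 and 3596. Against control, 1 was called higher (Ccr7) and 4 lower (Ccr2, Ccr4, Cxcr3 and Cxcr4), beside 33.1% and 26.3% of all genes (59.4% called in all). The libraries of the groups did not overlap for 5, 7 and 5 of the 7 receptors in these 3 comparisons, beside 75.0%, 66.1% and 67.4% of all genes. The first 2 comparisons share the OVA libraries, so a gene low in OVA alone tends to come out lower in one and higher in the other.

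Most genes tested were called in these comparisons, so passing the test does not set the receptors apart; their sizes and order are what the values show. Scaling the libraries by their median of ratios moved the median of all genes by 0.12 on the log2 scale for OVA plus citraconate against OVA, and log2 differences of that comparison are therefore given relative to the median of all genes. The adjusted p and the call printed with them test the difference before the median is taken off, not the relative value. T cell markers also differed between the groups: the summed TPM of 12 of them was 9212 to 9672 in control, 4444 to 5750 with OVA and 8178 to 8643 with OVA plus citraconate. None of the 12 was at 0 in any group. All 12 were tested: with OVA 10 were called lower and 0 higher, beside 39.8% and 32.1% of all genes. With citraconate against OVA 11 were called higher and 0 lower, beside 37.8% and 21.2%. Thy1, the highest, was not called in any comparison (means of 2662, 2736 and 2640 TPM in control, OVA and OVA plus citraconate). Cd3e was at 1405, 513 and 1281 TPM and Cd3g at 1523, 410 and 1123 TPM in that order. In bulk RNA, fewer cells of a type and less RNA per cell cannot be told apart, and the part of these shifts in the receptor values was not tested.

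**Figure D2:**
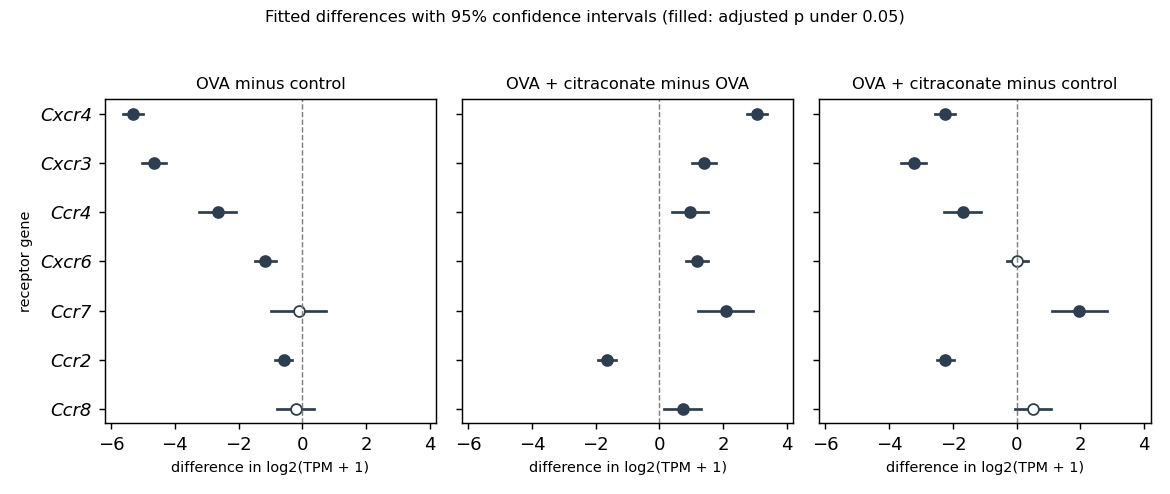
Fitted difference in log2(TPM + 1) (horizontal axes) for the 7 tested receptors in 3 comparisons, before the median of all genes is taken off; points are estimates, lines 95% confidence intervals, and filled points have an adjusted p under 0.05. Cxcr4 and Cxcr3 lie farthest below 0 for OVA against control, and Ccr2 is the one receptor below 0 for OVA plus citraconate against OVA.

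Stretches of DNA just before the start of the genes that moved are shown so that the sequences can be set beside the values. For 8 of the 9 genes (not Ccr7) a table of RefSeq promoters on mouse build GRCm38.p6 held a window; the 250 bases before the annotated start are used, 5′ to 3′ on the strand of the gene. This build is older than the GRCm39 build named in the submitters' processing notes, so the windows are matched by symbol only. Capitals mark matches, on either strand, to the motif letters given after the sequences. Shown are the 4 genes that fell with OVA and rose when citraconate was added, and then Ccr2, which fell in both comparisons.
Cxcr4, chr1:128592300-128592549, minus strand: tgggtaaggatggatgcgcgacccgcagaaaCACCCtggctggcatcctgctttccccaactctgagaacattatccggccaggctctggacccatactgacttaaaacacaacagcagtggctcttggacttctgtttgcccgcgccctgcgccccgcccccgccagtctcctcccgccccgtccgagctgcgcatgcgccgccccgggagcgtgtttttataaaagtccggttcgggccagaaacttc
Cxcr3, chrX:101734148-101734397, minus strand: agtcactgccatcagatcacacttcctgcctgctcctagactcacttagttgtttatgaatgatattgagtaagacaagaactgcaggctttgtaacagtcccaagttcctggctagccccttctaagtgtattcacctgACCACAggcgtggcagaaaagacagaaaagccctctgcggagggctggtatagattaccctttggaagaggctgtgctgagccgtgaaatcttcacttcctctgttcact
Ccr4, chr9:114496545-114496794, minus strand: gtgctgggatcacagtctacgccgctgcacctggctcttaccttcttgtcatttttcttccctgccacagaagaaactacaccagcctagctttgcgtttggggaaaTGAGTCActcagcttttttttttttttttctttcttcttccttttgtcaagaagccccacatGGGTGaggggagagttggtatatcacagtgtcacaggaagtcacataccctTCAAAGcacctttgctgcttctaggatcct
Cxcr6, chr9:123806227-123806476, plus strand: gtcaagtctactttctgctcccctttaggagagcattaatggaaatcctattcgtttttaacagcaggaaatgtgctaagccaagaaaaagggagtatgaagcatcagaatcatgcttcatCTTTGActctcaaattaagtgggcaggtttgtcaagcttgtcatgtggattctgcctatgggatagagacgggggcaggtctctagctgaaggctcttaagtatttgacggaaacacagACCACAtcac
Ccr2, chr9:124101933-124102182, plus strand: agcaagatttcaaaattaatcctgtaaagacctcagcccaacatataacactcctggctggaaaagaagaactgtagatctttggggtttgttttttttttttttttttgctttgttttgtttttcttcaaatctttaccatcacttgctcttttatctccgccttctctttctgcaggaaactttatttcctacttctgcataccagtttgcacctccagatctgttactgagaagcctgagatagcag

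Each window was searched for 8 short motifs and their reverse complements. CACCC, a core of KLF sites, was in 5 of the 8 windows (Ccr4, Ccr8, Ccr9, Cxcr4 and Cx3cr1) and in 52% of all 32851 windows of this length. TGTGGT, a core of RUNX sites, was in 3 (Cxcr3, Cxcr6 and Cx3cr1) and in 14% of all windows. CTTTGA, a core of TCF/LEF sites, was in 2 (Ccr4 and Cxcr6) and in 13.8% of all, and TGANTCA of AP-1 was in 1 (Ccr4) and in 6.75% of all. The letters GGTGTGA (T-box), GTAAACA (FOXO), TGACNNNGC (antioxidant response element) and ACGTG (hypoxia-inducible factor) were in 0 of the 8, beside 3.33%, 3.17%, 10.2% and 16.6% of all windows. No 2 matches overlapped. The Cxcr4 window held 19 CG pairs and the other 7 windows 1 to 4, where the median of all windows was 6. A match is a run of letters, and says nothing of binding in these cells.

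Cxcr4, the receptor for CXCL12, had the largest fold difference between group means among the 7 tested receptors. Its level was 121, 103 and 103 TPM in the control libraries, 2.03, 1.64 and 1.68 TPM with OVA, and 25.0, 17.2 and 25.1 TPM with OVA plus citraconate. No 2 groups overlapped, and every citraconate library lay between the other groups. With OVA it fell by 5.30 on the log2 scale (SE 0.14, limma adjusted p = 1.93e-09), the fourth lowest difference of the 11971 genes. With citraconate added it rose by 2.93 relative to the median (SE 0.14, adjusted p = 1.93e-06), which placed it 7th from the highest. It then stood at 20.6% of the control mean (log2 difference -2.24 against control, SE 0.14, adjusted p = 7.31e-07). The OVA values rest on 24, 19 and 21 reads.

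Cxcr3, the receptor for interferon-induced chemokines, followed the same order with a smaller rise. It was at 65.9, 57.8 and 65.4 TPM in control, 1.86, 0.902 and 2.09 TPM with OVA and 5.67, 5.06 and 6.70 TPM with OVA plus citraconate. The groups did not overlap. The fall with OVA was the 12th lowest difference of all genes (log2 -4.64, SE 0.17, limma adjusted p = 1.65e-08). Citraconate added to OVA raised it by 1.28 relative to the median (SE 0.17, adjusted p = 8.99e-05), which left it at 9.23% of the control mean (log2 -3.24 against control, adjusted p = 2.63e-07). OVA replicate 2, the lowest library, held 10 reads of this gene.

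Ccr4, the receptor for CCL17 and CCL22, was at 20.8, 17.8 and 14.5 TPM in control, 1.76, 1.34 and 2.96 TPM with OVA and 4.42, 7.26 and 3.22 TPM with OVA plus citraconate. The gap between the latter groups was narrow, from 2.96 TPM in the highest OVA library to 3.22 TPM in the lowest citraconate library. It fell with OVA (log2 -2.65, SE 0.26, limma adjusted p = 7.27e-06). With citraconate it rose by 0.84 relative to the median (SE 0.26, adjusted p = 0.0088) and stayed at 28.0% of control (log2 -1.69 against control, adjusted p = 0.000293).

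Cxcr6, the receptor for CXCL16, held the highest mean of the 9 in control and in OVA. Its libraries were at 139, 177 and 173 TPM in control, 83.2, 54.7 and 81.7 TPM with OVA and 169, 171 and 153 TPM with OVA plus citraconate. The citraconate values lay inside the range of control, and all OVA values lay below both. It fell 2.23-fold in mean TPM with OVA (log2 -1.16, SE 0.15, limma adjusted p = 5.54e-05) and rose by 1.06 relative to the median with citraconate (SE 0.15, adjusted p = 0.000115). Between OVA plus citraconate and control the log2 difference was 0.02 (95% interval -0.31 to 0.35, adjusted p = 0.92). In the GENCODE M21 annotation Cxcr6 lies inside Fyco1, a gene on the opposite strand, with no shared exon. Fyco1 was at 7.63 ± 0.612, 2.59 ± 0.0614 and 4.28 ± 0.272 TPM in the same order of groups (SD, n = 3); the use of strand in counting was not given in the sources used here.

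Ccr7, the lymph node homing receptor, was the 1 receptor of the 7 tested that was called higher with OVA plus citraconate against both OVA and control. Outside the 9, the receptor genes Ccr1, Ccr6 and Ccrl2 were also called higher against both. Of these, Ccr6 met the minimum of 1 TPM only with OVA plus citraconate, which favoured this direction. Ccr7 was at 59.1, 33.3 and 39.5 TPM in control, 47.8, 20.1 and 63.8 TPM with OVA and 205, 117 and 207 TPM with OVA plus citraconate. The control range lay inside that of OVA, and the lowest citraconate library lay above every other library. The rise over OVA was 1.95 relative to the median (SE 0.39, limma adjusted p = 0.00112), and the difference from control was a log2 of 1.97 (SE 0.39, adjusted p = 0.00147). Between OVA and control the interval was -0.97 to 0.75 (log2 -0.11, adjusted p = 0.812), and without OVA replicate 2 the difference was 0.36 (adjusted p = 0.263).

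Ccr7 varied between libraries, with a coefficient of variation of 30.6% in control, 50.3% under OVA, and 29.3% where citraconate was added. For Ccr2 the same values were 11.4%, 6.60% and 19.5%. In each group replicate 2 had the lowest Ccr7. The libraries that stood apart were among these: without OVA replicate 2 the log2 difference between OVA plus citraconate and OVA, before the median is taken off, was 1.61 (limma adjusted p = 0.000864), and without OVA plus citraconate replicate 2 it was 2.35 (adjusted p = 0.00113), beside 2.08 with all libraries. Over the 17 alternative settings that adjusted p lay between 5.31e-05 and 0.00628.

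Ccr2, the receptor for CCL2, stepped down across the groups. It was at 101, 124 and 103 TPM in control, 68.5, 77.6 and 70.6 TPM with OVA and 20.2, 27.7 and 19.9 TPM with OVA plus citraconate, with no overlap. With OVA it fell 1.51-fold in mean TPM (log2 -0.59, SE 0.12, limma adjusted p = 0.00162). With citraconate it fell by a further 1.77 relative to the median (SE 0.12, adjusted p = 8.63e-06), to 20.7% of control (log2 -2.23, SE 0.12, adjusted p = 3.53e-07).

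CCR2 is also carried by monocytes, so myeloid markers were read in the same libraries. The summed TPM of 15 of them was 235 to 286 in control, 271 to 302 with OVA and 60.2 to 73.8 with OVA plus citraconate. Most of it came from Ly6c2 (251 ± 28.0, 264 ± 15.9 and 44.1 ± 3.27 TPM), which CD8+ T cells also express, and which was called lower with citraconate against OVA, as Ccr2 was. Of the 15 genes 5 were tested: 3 were called higher and 0 lower with OVA, beside 32.1% and 39.8% of all genes. With citraconate against OVA 1 was called higher and 3 lower, beside 37.8% and 21.2%. Cd68 was at 6.16 ± 2.05, 12.8 ± 1.10 and 14.2 ± 3.50 TPM, Itgax at 6.96 ± 0.805, 5.71 ± 0.637 and 4.01 ± 0.857 TPM, Cd14 at 0.361 ± 0.323, 7.87 ± 1.93 and 3.57 ± 0.538 TPM, and Zbtb46 at 0.0362 ± 0.0341, 1.05 ± 0.490 and 1.79 ± 0.293 TPM. Listed at 0 in every library of a group were 4 genes for control, 5 for OVA and 6 for OVA plus citraconate, with Fcgr1, S100a8 and S100a9 among them in each group. The part of these markers in the Ccr2 values was not tested.

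Ccr8, the receptor for CCL1, was low throughout. It was at 1.79, 2.26 and 0.749 TPM in control, 1.06, 0.810 and 1.75 TPM with OVA and 2.59, 3.50 and 1.87 TPM with OVA plus citraconate. These rest on 3 to 12 recovered reads per library, the smallest whole numbers the table allows: they imply 578 exonic bases where GENCODE M21 has 1175, so the true reads may be a multiple. It was called higher with citraconate than with OVA (log2 0.60 relative to the median, SE 0.26, limma adjusted p = 0.0332), and this call was lost in 7 of the 16 alternative settings that tested the gene, where the adjusted p ranged up to 0.112. Leaving out OVA replicate 1 or 2, or OVA plus citraconate replicate 1 or 2, was among them (before the median is taken off, log2 0.69, 0.59, 0.73 and 0.56 with adjusted p of 0.0846, 0.0987, 0.0737 and 0.112). Against control the interval was -0.06 to 1.09 (adjusted p = 0.111), and between OVA and control -0.79 to 0.36 (adjusted p = 0.477).

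Cx3cr1 and Ccr9 were below the minimum for testing. Cx3cr1, a marker of effector cells, was at 0.139, 0.262 and 0.308 TPM in control, 0, 0 and 0.232 TPM with OVA and 0.623, 0.270 and 0.124 TPM with OVA plus citraconate, from 0 to 14 reads per library, and the groups overlapped. Ccr9, the receptor for the gut chemokine CCL25, was at 0.0366, 0 and 0.0612 TPM in control, listed at 0 in all 3 OVA libraries, and at 0.0706, 0.0715 and 0.0984 TPM with OVA plus citraconate, from 0 to 3 reads per library. A library without a read allows up to about 3 reads, which for Ccr9 was 0.0918 to 0.110 TPM in the libraries where it was seen; such limits cover counting error only. With no minimum on levels, Ccr9 was called higher with citraconate than with OVA (difference of 0.11 in log2(TPM + 1), limma adjusted p = 0.0298), and Cx3cr1 was not (0.30, adjusted p = 0.124). The reads of Ccr9, too, are the smallest whole numbers the table allows (4715 bases implied, 10260 in GENCODE M21). It overlaps exons of Slc6a20a and AC165425.1 on the opposite strand, and of Gm17200 on the same strand. Gm17200 also holds 2.13% of the runs of 50 bases in Ccr9 transcripts.

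The order of the levels differed between the groups. In control it ran Cxcr6, Ccr2, Cxcr4, Cxcr3, Ccr7, Ccr4, Ccr8, Cx3cr1, Ccr9, and the neighbours Ccr2 with Cxcr4, and Cxcr3 with Ccr7, had overlapping ranges. With OVA it ran Cxcr6, Ccr2, Ccr7, Ccr4, Cxcr4, Cxcr3, Ccr8, Cx3cr1, Ccr9. There the ranges of Cxcr6 and Ccr2 overlapped, as did those of Ccr4, Cxcr4, Cxcr3 and Ccr8, each with the next, and those of Cx3cr1 and Ccr9. With OVA plus citraconate it ran Ccr7, Cxcr6, Ccr2, Cxcr4, Cxcr3, Ccr4, Ccr8, Cx3cr1, Ccr9, and the pairs with overlapping ranges were Ccr7 with Cxcr6, Ccr2 with Cxcr4, Cxcr3 with Ccr4, and Ccr4 with Ccr8.

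Within the 9 receptors as a pool, shares do not change when a whole library is scaled. The 9 genes summed to 508 ± 7.78 TPM in control, 196 ± 35.0 TPM with OVA and 399.6 ± 44.5 TPM with OVA plus citraconate (SD, n = 3). Ccr7 made up 8.67 ± 2.65% of the control pool, 21.5 ± 7.93% of the OVA pool and 43.5 ± 8.76% where citraconate was added. Ccr2 went from 21.5 ± 2.20% to 38.0 ± 9.91% and then 5.79 ± 1.86%. Cxcr4 and Cxcr3 held 21.4 ± 1.98% and 12.4 ± 1.03% in control, 0.925 ± 0.157% and 0.801 ± 0.197% with OVA, and 5.58 ± 0.584% and 1.46 ± 0.147% with OVA plus citraconate. The share of Cxcr6 moved less, from 32.1 ± 4.13% to 37.2 ± 2.85% and 41.6 ± 6.56%. Set against each other within a library, Ccr7 stood at 0.259 to 0.903 times Ccr2 in the 6 libraries without citraconate and at 4.21 to 10.4 times Ccr2 in the 3 with it.

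**Figure D3:**
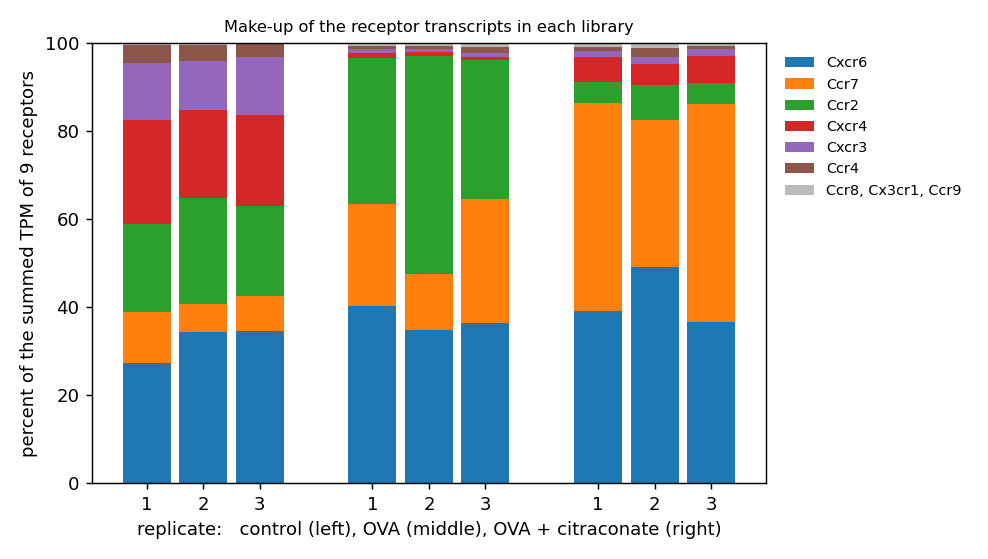
Each receptor as a percent of the summed TPM of the 9 receptors (vertical axis) in each of the 9 libraries, in groups of 3: control on the left, OVA in the middle and OVA plus citraconate on the right. Cxcr4 and Cxcr3 together take a wide band in control and a thin one elsewhere, and Ccr7 widens and Ccr2 narrows with citraconate.

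Of the 9 genes 6 lie on mouse chromosome 9 in RefSeq GRCm38.p6 (Ccr4, Cx3cr1, Ccr8, Ccr9, Cxcr6 and Ccr2), and Cxcr4, Ccr7 and Cxcr3 lie on 1, 11 and X. Among receptor genes of chromosome 9, directions differed with OVA: Ccr1l1, a relative of the receptor gene Ccr1, rose (log2 2.22, SE 0.24, limma adjusted p = 1.73e-05), while Cxcr6 and Ccr2 fell. In the order of these receptor genes Ccr1l1 is next to neither of the latter. Xcr1, next to Cxcr6, also fell with OVA (log2 -0.53, limma adjusted p = 0.0357), and Ccr1, next to Ccr1l1, was not called (log2 0.32). With citraconate against OVA, Ccr1l1 and Ccr2 both fell (Ccr1l1 log2 -1.18 relative to the median, SE 0.24, adjusted p = 0.00388), and Cxcr6, Xcr1 and Ccr1 rose. Of the runs of 50 bases in Ccr2 transcripts, 1.91% also occur in other genes, so a small share of its reads could be divided.

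Of 9 other chemokine receptor genes listed, 7 were tested. With OVA 1 rose (Ccr1l1) and 3 fell (Cxcr1, Cxcr2 and Xcr1), beside 32.1% and 39.8% of all genes. With citraconate against OVA 4 rose (Ccr1, Ccr6, Ccr10 and Xcr1) and 1 fell (Ccr1l1), beside 37.8% and 21.2%. Ccr6 and Ccr10 reached the minimum of 1 TPM only with OVA plus citraconate, and Cxcr1 and Cxcr2 only in control. Ccr1l1 reached it in both groups with OVA but not in control. For these genes the filter favoured the direction called with the group that passed, so the counts are not support for a direction. Ccr1 was at 4.59 ± 0.742, 6.02 ± 1.42 and 9.01 ± 2.27 TPM in control, OVA and OVA plus citraconate, and Ccr6, known from CD4+ T cells that make interleukin-17, at 0.169 ± 0.226, 0.561 ± 0.395 and 1.77 ± 0.351 TPM. Xcr1, the receptor for XCL1, went from 2.74 ± 0.929 to 1.55 ± 0.348 and 2.78 ± 0.682 TPM, and Ccr10 from 0.833 ± 0.717 to 0.0581 ± 0.0504 and 1.24 ± 0.660 TPM. Ccr1l1 was at 0.110 ± 0.00993, 4.27 ± 1.22 and 1.59 ± 0.904 TPM. Sequence shared with Ccr1, which could divide reads between these genes, was not examined. The neutrophil receptor genes Cxcr1 and Cxcr2 were at 2.05 ± 0.510 and 2.37 ± 0.525 TPM in control, and at or near 0 in the other groups. Of 6 atypical receptors, which bind chemokines without G protein signalling, 1 was tested. This was Ccrl2, which binds chemerin and shows it to other cells: it was at 2.85 ± 0.405 TPM in control and 3.39 ± 1.02 TPM with OVA, and rose to 13.5 ± 1.97 TPM with OVA plus citraconate (log2 1.62 relative to the median, limma adjusted p = 3.97e-05).

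The ligands of the 9 receptors were mostly at low levels in these cells: of 18 listed, 17 were in the table and 4 were tested. Ccl1, the ligand of CCR8, was listed at 0 in control, rose with OVA to 24.4 ± 10.1 TPM (limma adjusted p = 3.36e-07) and stood at 42.4 ± 11.4 TPM with OVA plus citraconate (adjusted p = 0.0274 against OVA). The libraries of these latter groups overlapped, at 14.0 to 34.2 TPM with OVA and 30.4 to 53.2 TPM with OVA plus citraconate. Ccl22 and Cxcl10 were called higher with citraconate than with OVA, at 1.24 ± 0.478 and 2.73 ± 1.30 TPM against 0.384 ± 0.244 and 1.10 ± 0.532 TPM. Ccl22 reached the minimum of 1 TPM only with OVA plus citraconate, so the filter favoured that direction. Ccl25 was at 1.44 ± 0.105, 1.56 ± 0.755 and 1.54 ± 0.358 TPM and was not called in any comparison.

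Counts of genes called in the lists that follow stand beside 32.1% of all genes higher and 39.8% lower with OVA, and 37.8% and 21.2% with citraconate against OVA, the latter split depending on the scaling as given above. Of 25 tested genes of the G protein, its effectors and the migration machinery, 10 rose and 12 fell with OVA, and 8 rose and 10 fell with citraconate against OVA. Coro1a, an actin regulator of T cell migration, fell with OVA from 1362 ± 57.0 to 587 ± 28.3 TPM and was at 698 ± 59.7 TPM with OVA plus citraconate. Plcb2, a phospholipase, and Prex1, an activator of Rac, fell with OVA from 23.1 ± 1.85 to 8.09 ± 0.402 and from 94.0 ± 2.29 to 34.4 ± 4.56 TPM. Pik3r6, a regulatory subunit of the G protein-coupled kinase PI3K gamma, rose from 1.85 ± 0.332 to 13.7 ± 2.31 TPM and was lower again with citraconate, at 5.82 ± 1.71 TPM.

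Among 13 tested genes that end receptor signalling, 5 rose and 7 fell with OVA, and 6 rose and 5 fell with citraconate against OVA. Rgs16, which speeds up the shut-off of G proteins, rose with OVA from 11.3 ± 0.533 to 211 ± 23.3 TPM and was at 289 ± 23.8 TPM with citraconate. Rgs1, of the same family, rose from 48.2 ± 1.60 to 204 ± 24.2 TPM and was at 143 ± 21.5 TPM. Arrb1, which encodes beta-arrestin-1, fell from 65.3 ± 3.83 to 5.74 ± 0.762 TPM and was at 25.4 ± 4.38 TPM with citraconate. The receptor kinase gene Grk6 fell from 219 ± 1.56 to 78.3 ± 10.0 TPM, and Grk5 rose from 2.85 ± 0.594 to 10.9 ± 0.504 TPM. Of 4 genes for tyrosine sulfation, a modification of receptor N termini that strengthens chemokine binding, 3 fell with OVA and 1 (Papss2) rose, and Tpst2 went from 128 ± 7.16 to 50.1 ± 9.57 and then 92.3 ± 3.13 TPM.

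Transcription factors with known roles in T cell trafficking were read beside the receptors. Of 22 tested, 6 rose and 12 fell with OVA (median log2 -0.54), and 14 rose and 4 fell with citraconate against OVA (median 0.64 before the median of all genes, 0.12, is taken off). Klf2, which maintains homing receptors of resting T cells, was at 143 ± 14.8 TPM in control, 19.3 ± 0.812 TPM with OVA and 70.5 ± 11.1 TPM with OVA plus citraconate. Foxo1, which acts upstream of Klf2 and Ccr7, was at 32.0 ± 2.57, 10.8 ± 1.84 and 27.2 ± 1.91 TPM, and Satb1, a chromatin organiser of T cells, at 81.3 ± 5.93, 19.1 ± 5.21 and 44.7 ± 3.44 TPM. All 3 fell with OVA (limma adjusted p from 2.04e-08 to 1.32e-06) and rose with citraconate (5.32e-06 to 0.000115). Eomes, a factor of effector and memory cells, was at 3.35 ± 0.171, 178 ± 44.7 and 82.8 ± 15.6 TPM. Zfp683 (Hobit), of tissue-resident cells, was at 58.1 ± 6.04, 2.52 ± 0.838 and 1.38 ± 0.374 TPM.

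**Figure D4:**
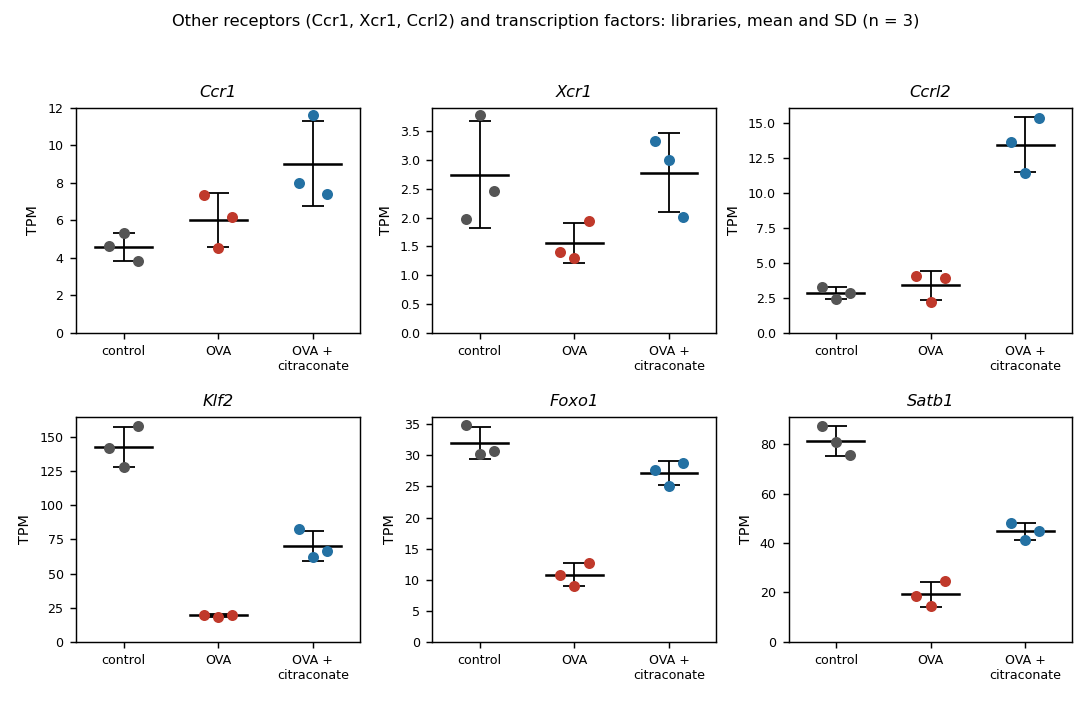
TPM (vertical axes, linear) of 3 receptor genes outside the 9 (top row) and 3 transcription factor genes (bottom row) in each library, with mean and SD (n = 3). Ccr1 and Ccrl2 have their highest means with OVA plus citraconate, Xcr1 its lowest with OVA, and Klf2, Foxo1 and Satb1 are lowest with OVA.

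Genes with the most similar profile were found by the root mean square difference over the 9 libraries between log2(TPM + 1) values, each gene centred on its own mean, among 8592 named genes (8593 for Ccr8) whose overall mean reached 5 TPM. Nearest to Cxcr4 was Zfp395 (difference 0.23, at 95.7, 2.18 and 21.0 TPM in control, OVA and OVA plus citraconate), and nearest to Cxcr3 was Rcn3 (0.26, at 125, 2.90 and 14.2 TPM). For Ccr4 it was Ebi3 (0.19, at 57.0, 9.88 and 16.2 TPM), and for Cxcr6 it was Klf6, a Kruppel-like factor (0.11, at 349, 151 and 338 TPM). Ccr7 was nearest to Klf4 (0.27), Itm2a (0.27) and Tnfrsf4 (0.28), all highest with citraconate; Itm2a was at 50.5, 40.2 and 207 TPM. Ccr2 was nearest to B4galnt4 (0.19, at 31.2, 17.4 and 5.54 TPM), Nlrp3 (0.20) and Cd93 (0.21). For Ccr8 the nearest was Etv6 (0.21), at 21.9, 19.1 and 38.0 TPM.

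Markers of other cells that carry these receptors were read in the same libraries. The summed TPM of 7 markers of CD4+ and regulatory T cells, which carry CCR4 and CCR8, was 134 to 161 for control, 72.4 to 165 for OVA and 319 to 353 for OVA plus citraconate. Of 6 tested, 4 were called lower with OVA, and 3 were called higher with citraconate against OVA. Tnfrsf4, which activated CD8+ T cells also express, made up most of the sum (82.4 ± 9.46, 95.3 ± 45.8 and 303 ± 13.1 TPM). Cd40lg fell with OVA from 25.6 ± 3.48 to 1.31 ± 0.627 TPM, as Ccr4 did, and was at 1.87 ± 0.123 TPM with citraconate. Izumo1r was at 1.32 ± 0.349, 1.72 ± 0.867 and 8.78 ± 2.76 TPM and Ikzf2 at 5.29 ± 0.665, 1.43 ± 0.259 and 8.42 ± 1.28 TPM, both called higher with citraconate against OVA. The defining gene Foxp3 was at 0.0931, 0.114 and 0.0139 TPM, and Cd4 at 2.62 ± 0.428, 1.27 ± 0.334 and 1.02 ± 0.197 TPM.

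Natural killer markers, 12 genes, summed to 305 to 362 TPM in control, 1366 to 1615 with OVA and 975 to 1057 with OVA plus citraconate. All 12 were tested: 9 were called higher with OVA, and 3 higher and 9 lower with citraconate against OVA. Tyrobp was at 0.864 ± 0.189, 789 ± 179 and 129.5 ± 44.2 TPM. The defining gene Ncr1 had no reads in any control library and was at 26.3 ± 4.19 TPM with OVA and 4.07 ± 0.834 TPM with citraconate. Both genes were called lower with citraconate than with OVA. Klrd1 (211 ± 18.5, 157 ± 48.7 and 335 ± 48.7 TPM), Klrc1 (81.2 ± 13.3, 148 ± 61.3 and 288 ± 37.2 TPM) and Klrk1 (39.3 ± 1.11, 54.1 ± 18.9 and 129.9 ± 19.2 TPM), which activated CD8+ T cells also express, were called higher with citraconate than with OVA. Summed B cell markers (7 genes) spanned 14.1 to 15.8 TPM for control, 1.71 to 2.75 TPM for OVA and 1.47 to 2.25 TPM for OVA plus citraconate. Cd79b made up most of the control sum (11.9 ± 2.02, 0.531 ± 0.438 and 0.234 ± 0.203 TPM). Of 3 tested, Cd79a and Cd79b were called lower with OVA and Ebf1 higher (0.142 ± 0.0387, 1.10 ± 0.614 and 1.45 ± 0.294 TPM). With citraconate against OVA 0 were called. Markers of epithelium and stroma (9 genes, led by Epcam) were at 4.89 to 6.58, 29.0 to 41.3 and 14.8 to 18.4 TPM in that order. Of 2 tested, Epcam was called higher with OVA and Krt18 lower (3.13 ± 0.392, 0.174 ± 0.214 and 0.508 ± 0.387 TPM). Epcam was called lower with citraconate against OVA. Markers of platelets and erythroid cells (8 genes, led by Hbb-bt) were at 7.03 to 9.28, 3.62 to 5.39 and 10.9 to 13.5 TPM. Of 2 tested, Hbb-bt was called lower with OVA and higher with citraconate against OVA. Hba-a1 was called in neither (1.79 ± 1.41, 0.577 ± 0.999 and 0.0692 ± 0.120 TPM). The part of any of these in the receptor values was not tested.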

How the data were processed

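RNA was extracted with an RNeasy Mini kit and sequenced on an Illumina NextSeq instrument, per the labels. The submitters' processing notes name Salmon, GRCm39 and Trim Galore 0.5.0, with no order; an annotation was not given in the sources used here. The deposited table, named for FPKM, holds TPM made by the authors, since each of its 9 columns sums to 1000000. Read counts were worked back from it: all 16734 genes above 0 in at least 2 libraries came out whole in every library (within 0.0001 reads, or a relative 3e-08 where that is more), as the smallest whole numbers. They gave depth, and in 1 alternative replaced TPM with voom weights.

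limma 3.58.1 in R 4.3.3 was fitted to log2(TPM + 1) of all 9 libraries (lmFit, eBayes with a trend) for 11971 genes reaching a group mean of 1 TPM, with Benjamini-Hochberg adjustment per comparison. The steps were tested on simulated data. The members, lists and tests were chosen with earlier results of these data known. By rule the text names all 9 members, up to 6 genes per list with the smallest adjusted p in the first 2 comparisons, every tested receptor except 1 that is not reported here and was left out of the list, up to 3 markers per list with the highest mean, and up to 3 genes most alike per member. Outside that rule, Foxp3, Cd4, Ikzf2, Izumo1r, Ncr1, Klrk1, Cd14, Zbtb46, Fcgr1, S100a8, S100a9 and Fyco1 were chosen after their values were seen. Alternatives were 9 choices (17 settings): pseudocount, 2 filters, 2 scalings, samples fitted, recovered reads, replicate block, and leaving out each library.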

Additional observations from a re-analysis of the deposited data

How the results depend on the processing

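Over 17 alternative settings, 347 log2 differences of the tested receptors kept their side of the threshold and, where called, their direction; the other 7 were all Ccr8 for OVA plus citraconate against OVA, which kept its direction and lost its call. Those were no filter on low values (adjusted p = 0.065), median of ratios scaling (0.0505), recovered reads with voom (0.0999) and 4 single libraries left out, given with the values of Ccr8. Counts of receptors and of genes called stayed within 1.5 times in all settings. With median of ratios scaling the genes called for OVA plus citraconate against OVA split into 3469 higher and 3596 lower, where the reported fit has 4522 and 2543. With 1 library left out, receptors called lower with OVA stayed at 5, and those called higher with citraconate against OVA were 5 or 6.

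Same-numbered libraries of different groups did not deviate together throughout (correlations of -0.012 to 0.304 over 9 pairs, and 3 of 9 libraries correlated best with their own number in both other groups), so the numbers were not taken as pairs. Those libraries were replicate 2 of each group, and the correlation of 0.304 was between replicate 2 of OVA and of OVA plus citraconate. A structure shared by the replicate 2 libraries is therefore possible. With the replicate number as a block, OVA against control had 3816 genes called higher and 4762 lower, the addition of citraconate 4471 and 2533, and no call on a receptor changed. Low reads limit Ccr8, Cx3cr1 and Ccr9.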
